A study of Mus musculus with 3 samples.

Results

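The genes described here are those that the deposited expression table assigns to the KEGG lysosome pathway, measured by RNA sequencing in B cells sorted from mouse spleen. Of the 27088 genes in the table, 119 carried this annotation. Cd68 and Slc11a1 were left out by the rule, which left 117 genes. A gene was kept when its level reached at least 1 FPKM (fragments per kilobase of transcript per 1000000 mapped fragments, a level corrected for gene length) in at least 1 of the 2 libraries compared, and 108 genes passed. They are called lysosome genes below, and they were set beside all 12433 genes that passed the same minimum. The gene closest above the minimum was Ppt2, at 1.32 FPKM for PBS and 1.13 FPKM for SJMHE1. The closest below it was Sort1, at 0.90 and 0.74 FPKM. The other 8 genes below it were Abcb9, Ap3b2, Atp6v0a4, Cd63, Ctsf, Ctsk, Galc and Hyal1.

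Both libraries came from female BALB/c mice with allergic rhinitis, aged 6 weeks at the start and labelled as 13 weeks old. The mice of both groups were sensitized intraperitoneally with 10 μg ovalbumin (OVA) and 2 mg Al(OH)3 on days 0, 7 and 14, and were challenged with 100 μg OVA in the nose on days 21 to 27 and again on days 29 to 35. On days 0, 14 and 28 the PBS group received PBS, and the SJMHE1 group received 10 μg of SJMHE1, a peptide from the blood fluke Schistosoma japonicum, emulsified in incomplete Freund's adjuvant. The PBS injections held no adjuvant, so peptide and adjuvant cannot be told apart. Spleens were taken on day 36, and material of 3 mice was mixed into 1 library per group. With 1 library per group there was no replicate, so no test was made and no p-value is given. The third group, untreated Control mice, was not analysed here because no column of the table is named for it.

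The lysosome is the acidic compartment in which cells break down proteins, sugars, lipids and nucleic acids. Its enzymes are made in the endoplasmic reticulum, tagged with mannose 6-phosphate in the Golgi, and carried to the compartment by receptors, clathrin and adaptor complexes, while a proton pump in the membrane keeps the inside acidic. In B cells the same compartment cuts antigens taken up through the B cell receptor, and its proteases trim the invariant chain so that peptides can be loaded on MHC class II molecules. Many lysosome genes share a promoter element with the core CACGTG, bound by TFEB and its relatives TFE3 and MITF.

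The longer form of this element, TCACGTGA, was searched for in RefSeq promoter windows, each running from 250 bases before to 50 bases after a start site on GRCm38.p6. Both TCACGTGA and CACGTG read the same on the other strand, and every TCACGTGA holds a CACGTG. Of the 108 lysosome genes, 84 had a window. TCACGTGA was present for 10 of the 84, or 11.9%. Over all compared genes with a window the share was 2.49%, and over all genes in the promoter table it was 1.12%. CACGTG was present for 23 of the 84, or 27.4%, against 12.2% of the compared genes and 8.09% of all genes in the promoter table. A match is a description of the letters and not evidence of binding. Ctsa, Gla and Igf2r each held a further match, so the match nearest a start site was taken for each gene. The 30 bases around it are shown for the 10 genes, because they are the stretch these genes share beyond the annotation that chose them. Each is written 5′ to 3′ on the strand of the gene, and the capitals mark TCACGTGA.
Cd164 (chr10:41519401-41519430, plus strand): cgccgggctgcTCACGTGAccggcgcgcgc
Ctsa (chr2:164833766-164833795, plus strand): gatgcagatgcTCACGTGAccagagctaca
Ctsd (chr7:142387908-142387937, minus strand): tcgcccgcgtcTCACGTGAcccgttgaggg
Atp6v0d1 (chr8:105566050-105566079, minus strand): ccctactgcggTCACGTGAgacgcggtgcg
Gla (chrX:134601182-134601211, minus strand): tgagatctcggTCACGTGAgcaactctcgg
Sumf1 (chr6:108185577-108185606, minus strand): agcaccacaggTCACGTGAtctccatgggt
Mcoln1 (chr8:3500462-3500491, plus strand): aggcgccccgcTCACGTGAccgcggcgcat
Gnptg (chr17:25240120-25240149, minus strand): ccggctgtcacTCACGTGAccgtgagaccc
Cln3 (chr7:126583340-126583369, minus strand): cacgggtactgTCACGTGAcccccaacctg
Igf2r (chr17:12769696-12769725, minus strand): gccgactcaggTCACGTGAcgctccgggga

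These 10 genes come from 6 role groups, and none is from the role group of lipid, nucleic acid and phosphate hydrolases and their activators. They are a membrane sialomucin (Cd164), the carboxypeptidase that protects other enzymes (Ctsa), an aspartic protease (Ctsd), a pump subunit (Atp6v0d1), a glycosidase (Gla), the activator of sulfatases (Sumf1), a calcium channel (Mcoln1), part of the tagging enzyme (Gnptg), a membrane protein (Cln3) and a sorting receptor (Igf2r). Their levels ran from a mean of 2.37 FPKM for Igf2r to 57.9 FPKM for Cd164. Between the libraries, 3 of the 10 were higher with SJMHE1, 6 were lower and 1 was equal, with a median log2 ratio of -0.086. The 74 lysosome genes with a window but without the motif had a median log2 ratio of -0.058, with 32 higher and 42 lower.

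The libraries were deep and close in size, with 48267168 counts over genes for PBS and 51280237 for SJMHE1, and the 50 most abundant genes took 17.1% of the counts in each. The labelled cell type was seen in both. All 13 genes of a B cell marker list were measured, with a summed level of 12589 FPKM for PBS and 12624 FPKM for SJMHE1. Cd74 and Ighm made most of that sum. Of the 13 genes, 8 were higher with SJMHE1 and 5 lower, and Cr2 had the highest ratio, at 136 FPKM for PBS and 218 FPKM for SJMHE1. Markers of other cell types had lower sums than the B cell list, and these sums differed between the libraries. The summed level of 12 T cell markers was 58.7 FPKM for PBS and 16.2 FPKM for SJMHE1, that of 9 NK cell markers was 18.6 and 7.5 FPKM, that of 10 dendritic cell markers was 23.7 and 17.2 FPKM, and that of 20 macrophage markers was 118 and 71.8 FPKM. Neutrophil markers (465 and 536 FPKM over 10 genes), plasma cell markers (663 and 557 FPKM over 8 genes) and erythroid markers (153 and 201 FPKM over 8 genes) also differed. A sum can go against most genes of its list. The neutrophil sum was higher with SJMHE1, though 7 of its 10 markers were lower. Lyz2 made most of the macrophage sum and was lower, while 9 of the 12 compared macrophage markers were higher. No B cell marker was listed at 0, and among all these lists only the dendritic cell genes Batf3 and Clec4a4 were, both in the SJMHE1 library.

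Lysosome genes were abundant in both libraries. Their median level was 11.5 FPKM for PBS and 10.3 FPKM for SJMHE1, against 6.24 and 6.25 FPKM over all compared genes, and 69 of the 108 lay above the median level of all genes. Together they held 2562 FPKM for PBS and 2433 FPKM for SJMHE1, which was 0.777% and 0.782% of all FPKM. The 3 most abundant genes were Psap, Ctss and Laptm5. Psap, the precursor of the saposins that help lipid hydrolases reach their substrates, was at 277 and 222 FPKM. Ctss, the cathepsin that removes the invariant chain in B cells, was at 211 FPKM for PBS and 231 FPKM for SJMHE1. Laptm5, a lysosomal membrane protein of blood cells that lowers B cell receptor levels, was at 178 and 167 FPKM. These 3 genes held 26.0% of the lysosome genes' FPKM for PBS and 25.5% for SJMHE1, and the 10 most abundant held 46.2% and 45.6%. The other 7 were the proteases Ctsz, Napsa, Ctsh and Ctse, the clathrin light chain Clta, and the membrane proteins Cd164 and Laptm4a. As libraries of mixed cells, these levels cannot tell fewer cells of a type from less RNA per cell.

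Lysosome genes differed little between the SJMHE1 and PBS libraries. Over the 108 genes the log2 ratio of SJMHE1 to PBS had a median of -0.080, against -0.013 over all compared genes. The middle 90% of the lysosome genes lay between -0.48 and 0.27, and that of all genes between -0.82 and 0.64. The ranges were closer among genes with at least 1 FPKM in both libraries. There they were -0.43 to 0.25 for 105 lysosome genes and -0.57 to 0.49 for all 11366 genes. Lysosome genes also had higher levels than all genes, and no comparison at matched levels was made. There were 42 lysosome genes higher with SJMHE1, 65 lower and 1 equal, so 38.9% were higher, against 47.7% of all genes. This split depended on the scaling. When both libraries were brought to the same sum of FPKM, every log2 ratio moved up by 0.083, 56 lysosome genes were higher and 52 lower (51.9% higher, against 60.5% of all genes), and the lysosome median became 0.0028, against 0.070 for all genes. Intervals were counted only under the scaling of the deposited FPKM. There the 95% interval from counting error lay wholly above 0 for 27 lysosome genes, wholly below 0 for 51, and held 0 for 30. Over all 12433 compared genes it lay wholly above 0 for 3856, wholly below 0 for 4295, and held 0 for 4282. At equal FPKM sums every interval would move up with its ratio, so these counts also depend on the scaling. Such intervals cover counting error only and say nothing of the spread between mice.

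A difference above 2-fold in either direction, a log2 ratio above 1 or below -1, was seen for 2 lysosome genes. One was higher, 0.926% of the 108, where the background over all compared genes was 302 genes or 2.43%. One was lower, where the background was 444 genes or 3.57%. Past a smaller threshold, a log2 ratio of 0.5, were 3 higher lysosome genes (2.78%, background 7.28%) and 6 lower ones (5.56%, background 9.82%). Of the 108 genes, 3 reached the minimum in 1 library only, namely Ctsg, Ctsw and Ctsl, and such genes had to differ. Among the 105 lysosome genes with at least 1 FPKM in both libraries, 0 passed the 2-fold threshold, where the background was 0.889% higher and 1.33% lower. With so small a background, a count of 0 among 105 genes is near it. The log2 ratios of these 105 genes ran from -0.83 to 0.67.

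**Figure D1:**
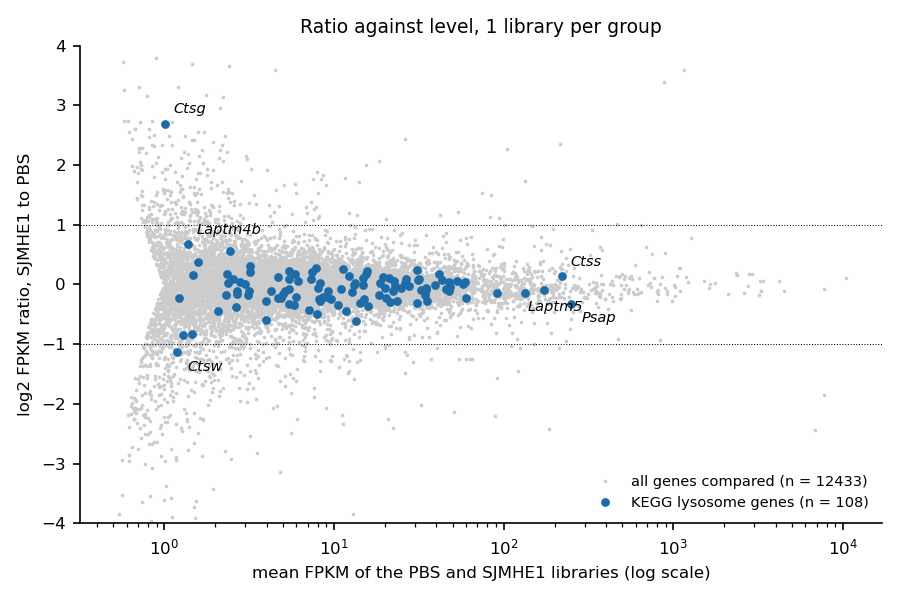
Log2 ratio of FPKM (SJMHE1 to PBS, 1 library each) against the mean FPKM of the 2 libraries on a log scale, for all 12433 genes compared (grey) and the 108 lysosome genes (blue), with dotted lines at 2-fold. Lysosome genes stay between the lines except Ctsg and Ctsw, both close to 1 FPKM, and 17 other genes fall outside the plotted range of 4 log2 units either way.

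The proteases are the largest hydrolase class here next to the glycosidases, with 15 genes each. For 12 of the proteases the libraries were within a log2 ratio of 0.3 of each other. Of all 15, 5 were higher with SJMHE1 and 10 lower, with a median log2 ratio of -0.089 that moved to -0.0063 at equal FPKM sums. Ctss had a log2 ratio of 0.13 (interval 0.10 to 0.16) and was the most abundant protease in both libraries. Ctsz, a carboxypeptidase, was at 139 FPKM for PBS and 127 FPKM for SJMHE1. Napsa, an aspartic protease, was at 95.7 and 87.0 FPKM. Ctsh, an aminopeptidase, was at 64.8 and 55.6 FPKM, with a log2 ratio of -0.22 (interval -0.25 to -0.19). Ctse, an aspartic protease of the endosome, was at 48.8 and 47.3 FPKM. Lgmn, the asparagine endopeptidase that makes early cuts in antigens and in the invariant chain, was at 26.1 and 26.4 FPKM, with an interval of the log2 ratio that held 0. Of the classical cathepsins, Ctsd was at 36.4 and 32.1 FPKM and Ctsb at 25.3 and 24.2 FPKM. By level the 12 abundant proteases, from Ctss down to Tpp1, kept their order in both libraries except for Ctsd, which stood above Ctsa and Ctsc for PBS and just below both for SJMHE1. Neighbours such as Ctsd, Ctsa and Ctsc lay within a few FPKM of each other, and with no replicate the error of their order cannot be given.

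Both genes past the 2-fold threshold were cathepsins of low level. Ctsw (chr19:5465043-5468501, minus strand, mm10), a protease known from NK cells and cytotoxic T cells, was at 1.63 FPKM for PBS and 0.74 FPKM for SJMHE1, or 172 and 82 counts. Its log2 ratio was -1.14 (interval -1.54 to -0.75). Beside it, all 11 compared T cell markers and all 6 compared NK cell markers were lower in the SJMHE1 library, with median log2 ratios of -1.88 and -1.50. No T or NK cell marker was listed at 0 in either library. The part of these cells in the Ctsw difference was not tested.

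Ctsg (chr14:56099881-56102574, minus strand), a serine protease of neutrophil granules, was at 0.27 FPKM for PBS and 1.74 FPKM for SJMHE1, or 16 and 105 counts. Its log2 ratio was 2.69 (interval 1.92 to 3.55). Of the 10 neutrophil markers, 3 were higher with SJMHE1 and 7 lower, with a median log2 ratio of -0.25 and none listed at 0. S100a8 was the marker with the highest ratio, at 73.6 and 115 FPKM. Chosen after the values were seen, 3 other genes of the same granules were also read. Elane, neutrophil elastase, was at 1.51 and 2.53 FPKM, Prtn3, proteinase 3, at 1.32 and 2.11 FPKM, and Mpo, myeloperoxidase, at 3.48 and 2.61 FPKM. So 2 of these 3 were higher and 1 lower with SJMHE1. The part of neutrophils or their precursors in the Ctsg difference was not tested.

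Ctsl, which trims the invariant chain in thymic epithelium, was the third protease near the minimum, at 1.65 FPKM for PBS and 0.92 FPKM for SJMHE1. Its log2 ratio was -0.84 (interval -1.04 to -0.65). Of its exon bases, more than 20% are shared with another gene in GENCODE M21, so reads of both may be mixed where strand was not used. The summed macrophage markers were also lower in the SJMHE1 library. Lyz2, at 88.8 FPKM for PBS and 37.4 FPKM for SJMHE1, made most of that sum, while 9 of the 12 compared macrophage markers were higher, among them C1qa at 2.36 and 3.66 FPKM. The part of these cells in the Ctsl difference was not tested.

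**Figure D2:**
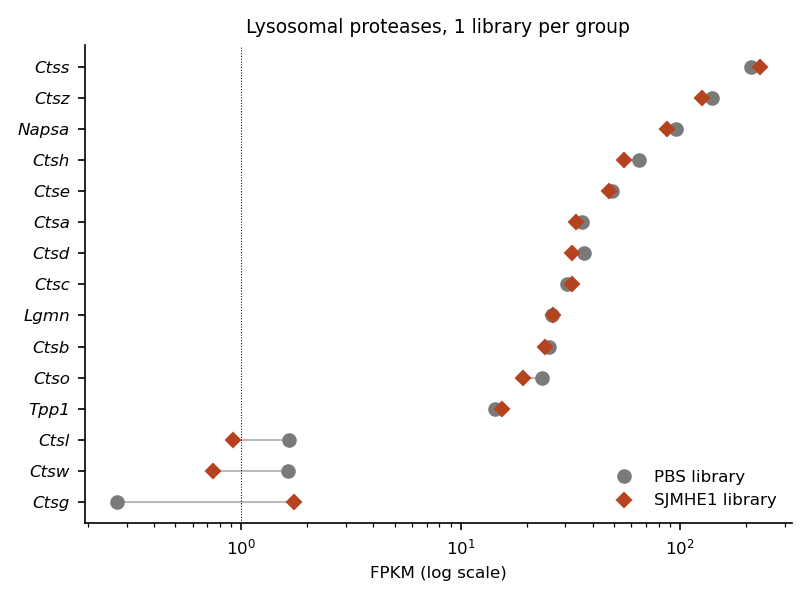
FPKM on a log scale of the 15 lysosomal proteases in the PBS library (grey circles) and the SJMHE1 library (red diamonds), ordered by mean level, with a dotted line at 1 FPKM. For 12 proteases the symbols lie close together, and the 3 lowest, Ctsl, Ctsw and Ctsg, cross the line between the libraries.

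**Figure D3:**
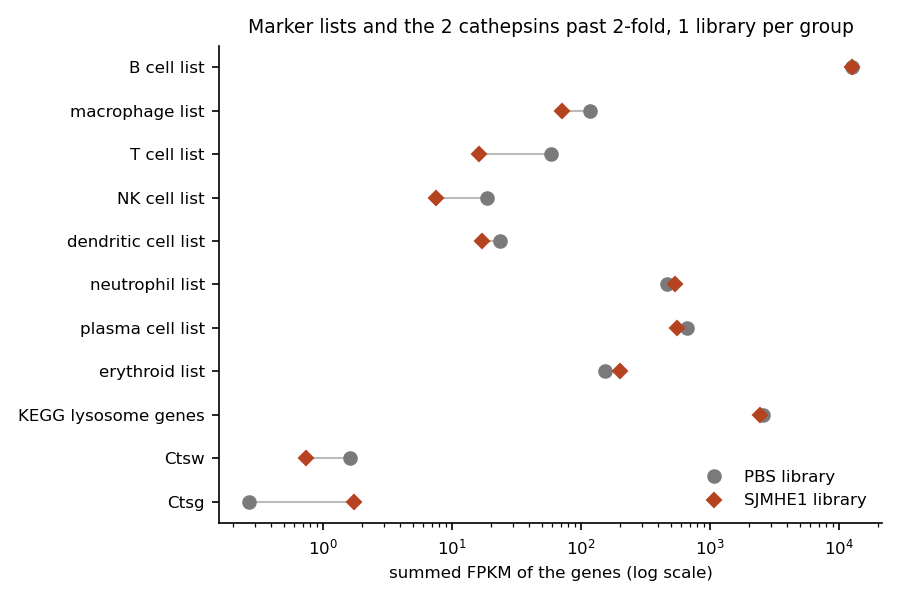
Summed FPKM on a log scale of the cell type marker lists and of the 108 lysosome genes, with the FPKM of Ctsw and Ctsg, in the PBS library (grey circles) and the SJMHE1 library (red diamonds). The sums of the B cell list and of the lysosome genes nearly coincide between the libraries, though single genes in them differ. The T cell list goes from 58.7 to 16.2 FPKM and the NK cell list from 18.6 to 7.5 FPKM. A sum can rest on few genes, as that of the macrophage list does on Lyz2.

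The glycosidases remove sugars from glycoproteins, glycolipids and glycosaminoglycans. Of 15, 4 were higher with SJMHE1 and 11 lower, with a median log2 ratio of -0.090. At equal FPKM sums they were 7 higher and 8 lower, with a median of -0.0073. Gla, the alpha-galactosidase that is deficient in Fabry disease, was at 16.1 FPKM for PBS and 10.6 FPKM for SJMHE1, with a log2 ratio of -0.60 (interval -0.69 to -0.52). Glb1, the beta-galactosidase of gangliosides and keratan sulfate, was at 9.28 and 6.55 FPKM, with a log2 ratio of -0.50 (interval -0.61 to -0.39). Gla rested on 2893 and 2016 counts and Glb1 on 1532 and 1145 counts. Hexa, the alpha subunit of hexosaminidase, was at 33.5 FPKM for PBS and 31.4 FPKM for SJMHE1. Man2b1, the lysosomal alpha-mannosidase, was at 27.7 and 27.2 FPKM. The highest ratio belonged to Neu1, the sialidase, at 20.1 FPKM for PBS and 21.8 FPKM for SJMHE1.

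The sulfatases, which take sulfate off glycosaminoglycans and sulfatides, had the lowest median of all role groups. Of 8 genes, counting their activator Sumf1, 2 were higher with SJMHE1 and 6 lower, with a median log2 ratio of -0.22. Both counts were the same at equal FPKM sums. Over all compared genes 47.7% were higher, and 60.5% at equal FPKM sums. With 8 genes and no replicate, the error of this ranking cannot be given. Galns was at 13.6 FPKM for PBS and 9.99 FPKM for SJMHE1, with a log2 ratio of -0.44 (interval -0.54 to -0.35). Sgsh was at 11.9 and 9.33 FPKM. In the other direction, Ids, which starts the breakdown of heparan and dermatan sulfate, was at 10.3 and 12.3 FPKM. Arsg, the lowest of the group, was at 1.37 and 1.78 FPKM, with a log2 ratio of 0.38 (interval 0.16 to 0.60).

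Members of both classes, with the acetyltransferase Hgsnat, are listed together in the KEGG glycosaminoglycan degradation pathway, a grouping looked at after the values were seen. The pathway was picked from several that lysosome genes also carry. Among the others, sphingolipid metabolism had 2 lysosome genes higher and 5 lower, apoptosis 2 higher and 7 lower, and phagosome 8 higher and 5 lower. Glycosaminoglycan degradation held 12 lysosome genes, of which 10 were lower with SJMHE1 and 2, Ids and Naglu, were higher. Their median log2 ratio was -0.23, and 47.7% of all compared genes were higher. At equal FPKM sums 8 of the 12 were lower and 4 higher, with a median of -0.14, where 60.5% of all genes were higher. Hgsnat, which acetylates heparan sulfate from across the lysosomal membrane, had the lowest ratio of them, at 1.85 FPKM for PBS and 1.04 FPKM for SJMHE1 with a log2 ratio of -0.83 (interval -1.09 to -0.57), and sits just above the minimum in the SJMHE1 library.

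Hydrolases of lipids, nucleic acids and phosphate esters and their activators numbered 13, of which 5 were higher with SJMHE1 and 8 lower, with a median log2 ratio of -0.11. Psap, the most abundant lysosome gene in the PBS library, had a log2 ratio of -0.32 (interval -0.34 to -0.30) on 41754 and 35424 counts. Gm2a, the activator of ganglioside breakdown, was at 38.5 and 31.9 FPKM. Smpd1, the acid sphingomyelinase, was at 6.51 and 5.13 FPKM. Enzymes with a higher value in the SJMHE1 library included Lipa, the acid lipase, at 4.46 and 4.89 FPKM, and Acp5, the tartrate-resistant acid phosphatase, at 47.0 and 48.5 FPKM. For Acp5 the interval of the log2 ratio held 0. Entpd4 was at 2.37 and 1.75 FPKM, and its copy Entpd4b at 2.45 and 2.16 FPKM. All transcript windows of 50 bases of each occur in the other (100%), so their reads could be split between them in any way and their separate values are uncertain.

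The membrane proteins and transporters numbered 19, with 7 higher with SJMHE1, 11 lower and 1 equal, and a median log2 ratio of -0.10. The structural proteins of the lysosomal membrane were close: Lamp1 was at 49.2 FPKM for PBS and 45.8 FPKM for SJMHE1, and Lamp2 at 5.27 and 5.60 FPKM. The group held both the widest ratios among genes above 1 FPKM in both libraries and the closest ones. Laptm4b, related to Laptm5, was at 1.06 and 1.69 FPKM, with a log2 ratio of 0.67 (interval 0.33 to 1.02) on 113 and 191 counts. Slc11a2, the divalent metal transporter that moves iron out of the endosome, was at 1.96 and 2.90 FPKM, with a log2 ratio of 0.57 (interval 0.43 to 0.71). Mcoln1, the calcium channel, was at 6.85 and 7.95 FPKM. Litaf, a late endosome protein, was at 4.79 and 3.16 FPKM, with a log2 ratio of -0.60 (interval -0.72 to -0.48). Cln3 was at 3.00 FPKM in both, and Cd164 at 57.8 and 57.9 FPKM. The cholesterol exporters Npc1 (2.78 and 2.59 FPKM) and Npc2 (15.7 and 12.8 FPKM) both had lower values with SJMHE1.

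**Figure D4:**
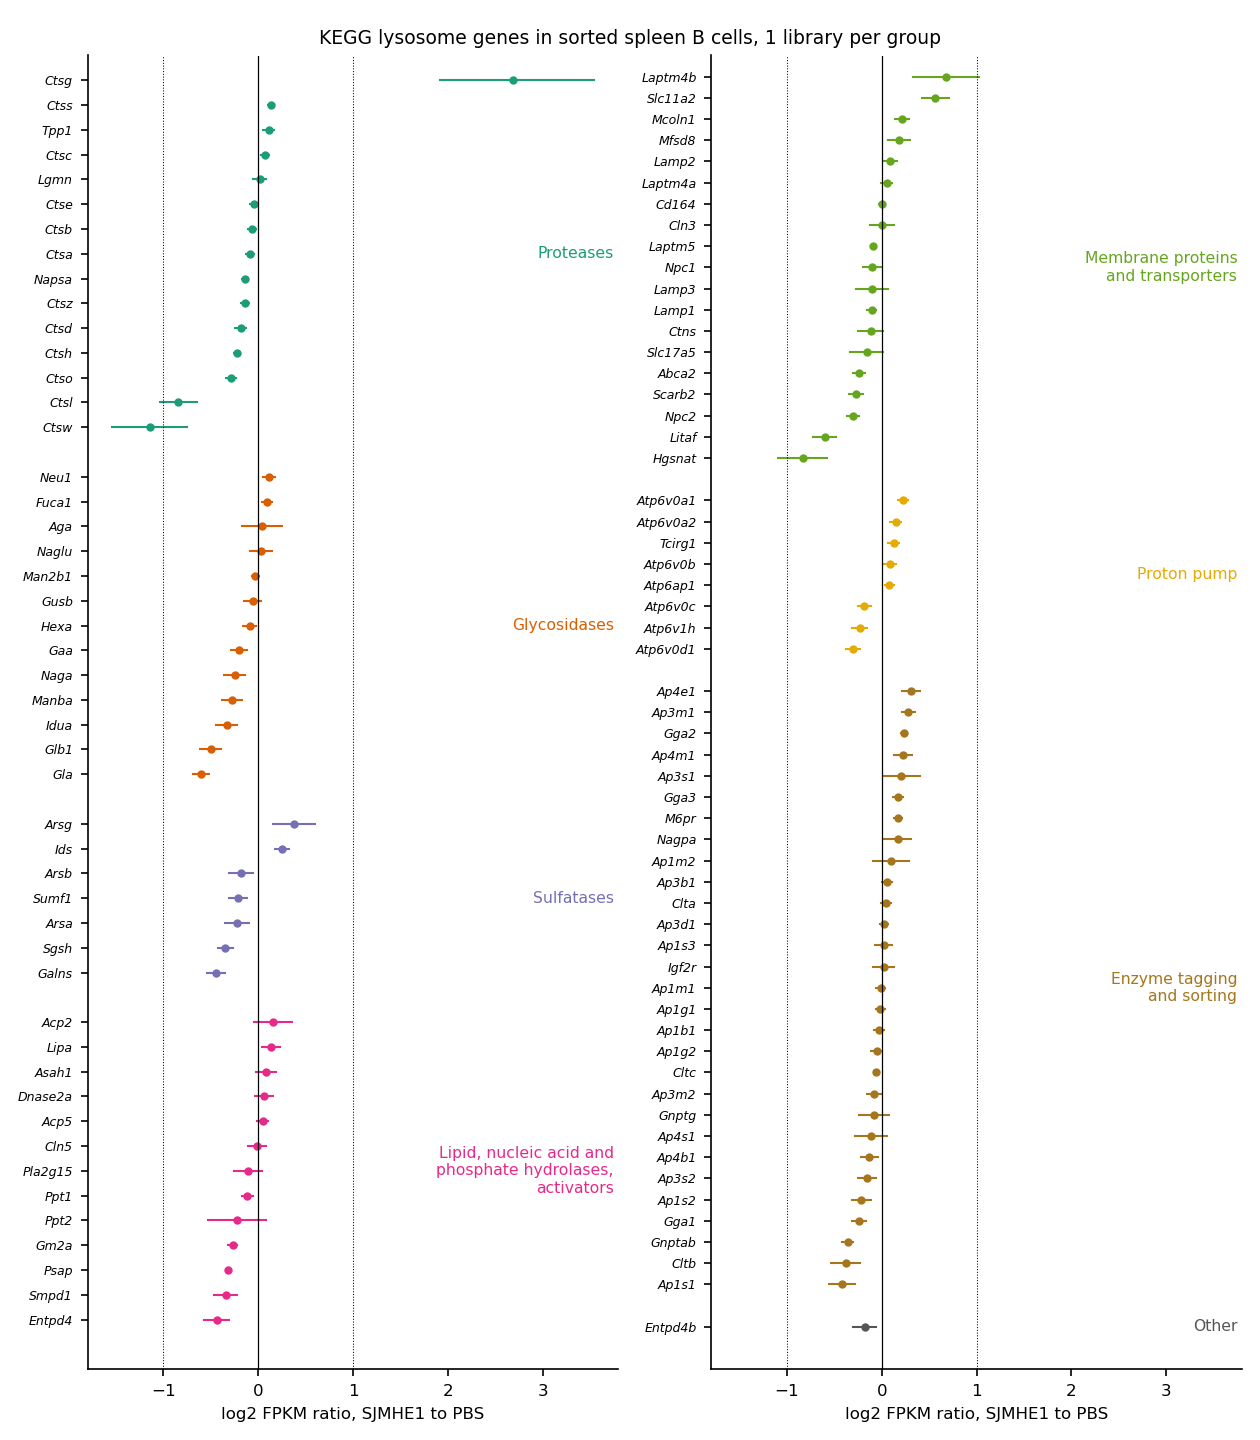
Log2 ratio of FPKM (SJMHE1 to PBS, 1 library each) of 105 lysosome genes, grouped by role and ordered within it, with dotted lines at 2-fold. Points are the ratios and horizontal bars are 95% intervals from counting error only, and the points lie between the lines except those of Ctsg and Ctsw.

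The proton pump was the only role group with a positive median, under the scaling of the deposited FPKM. Of its 8 genes, 5 (62.5%) were higher with SJMHE1 and 3 lower, with a median log2 ratio of 0.084. Over all compared genes 47.7% were higher. Both counts of the pump were the same at equal FPKM sums, where 60.5% of all genes were higher. There the share of the pump genes was near that of all genes. Subunits of the membrane part went both ways. The group held only Atp6v1h of the cytosolic part, so the parts of the pump cannot be compared. The membrane subunits Atp6v0a1 (14.5 FPKM for PBS and 16.9 FPKM for SJMHE1), Atp6v0a2 (11.6 and 12.9 FPKM) and Tcirg1 (18.5 and 20.2 FPKM), which are alternative forms of the same subunit, were all higher. The accessory protein Atp6ap1, the most abundant of the group, was at 41.9 and 44.3 FPKM. Lower values with SJMHE1 were seen for Atp6v0d1 (34.1 and 27.6 FPKM), Atp6v0c (19.5 and 17.2 FPKM) and Atp6v1h (5.24 and 4.46 FPKM). The intervals of all 8 lay wholly on one side of 0.

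Genes that tag and sort lysosomal enzymes numbered 29 and were nearly balanced, with 14 higher with SJMHE1 and 15 lower and a median log2 ratio of -0.0099 that turned to 0.073 (21 higher, 8 lower) at equal FPKM sums. Gnptab, the catalytic part of the enzyme that makes the mannose 6-phosphate tag, was at 17.8 FPKM for PBS and 13.9 FPKM for SJMHE1, with a log2 ratio of -0.36 (interval -0.42 to -0.31). Its partner Gnptg was at 5.56 and 5.25 FPKM, and Nagpa, which uncovers the tag, was at 5.53 and 6.21 FPKM. Gnptg shares 49.5% of its exon bases with another gene, so its value is uncertain. Of the receptors for the tag, M6pr was at 39.2 and 44.1 FPKM and Igf2r at 2.35 and 2.38 FPKM.

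The clathrin coat and its adaptors differed by member. Clta was at 57.8 FPKM for PBS and 59.8 FPKM for SJMHE1, the heavy chain Cltc at 35.6 and 34.2 FPKM, and the other light chain Cltb at 3.01 and 2.31 FPKM. The GGA adaptors, which bind the tag receptors at the Golgi, were split, since Gga2 was at 28.5 and 33.5 FPKM, Gga3 at 14.6 and 16.4 FPKM, and Gga1 at 16.4 and 13.8 FPKM. Of the 8 AP-1 genes, 2 were higher and 6 lower, with a median log2 ratio of -0.023 that turned to 0.060 (6 higher, 2 lower) at equal FPKM sums. The lowest was Ap1s1, a small subunit, at 8.12 and 6.07 FPKM. Of the 6 AP-3 genes, which carry membrane proteins to the lysosome, 4 were higher and 2 lower with a median log2 ratio of 0.036, with Ap3m1 at 7.10 and 8.63 FPKM. Of the 4 AP-4 genes, Ap4e1 (2.87 and 3.56 FPKM) and Ap4m1 (5.0 and 5.84 FPKM) were higher, and Ap4b1 and Ap4s1 were lower. Ap3m1, Ap4m1 and Ap4b1 share more than 20% of their exon bases with other genes.

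The regulators of lysosome genes, which are not in the pathway list, were read from a list of 20 transcription factors and nutrient-sensing proteins of the lysosomal surface. Of these, 16 passed the FPKM minimum, and 0 of the 16 differed by more than 2-fold, where the background was 2.43% higher and 3.57% lower, so that a count of 0 among 16 genes is near the background. There were 5 higher with SJMHE1 and 11 lower, with a median log2 ratio of -0.063. Tfeb was at 14.7 FPKM for PBS and 13.2 FPKM for SJMHE1, and Tfe3 at 4.56 and 4.02 FPKM. Mitf and Tfec were below 1 FPKM in both libraries. Zkscan3, described as a repressor of lysosome and autophagy genes, had the highest ratio of the 16, at 8.48 and 13.3 FPKM with a log2 ratio of 0.65 (interval 0.59 to 0.71). Lamtor1, the anchor of the complex that recruits mTOR, had the lowest of the 16, at 8.04 and 5.76 FPKM with a log2 ratio of -0.48 (interval -0.60 to -0.37). Mtor itself was at 6.38 and 6.80 FPKM.

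Reads from overlapping genes limit some of these values. Of the 108 lysosome genes, 42 share at least 1 exon base with another gene in GENCODE M21. More than 20% is shared by 13, among them Ctsd, Ctsl, Gnptg and Sgsh. Without these 13, the other 95 had 39 higher and 55 lower genes and a median log2 ratio of -0.056.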

How the data were processed

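Libraries were made from rRNA-depleted total RNA of sorted spleen B cells with random priming, material of 3 mice mixed per group. Per the submitters' processing notes, the build was mm10 and the tools included bcl2fastq 2.0, HISAT2, StringTie, DESeq2 and limma. The counting tool and its strand setting are not given in the sources used here. The authors deposited 1 table with a raw count and an FPKM value per gene and library. The 2 value columns whose name matches no sample were not used.

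Ratios are log2 of FPKM for SJMHE1 over PBS without a pseudocount, for genes at FPKM 1 or more in either library, with neither value at 0. FPKM is given to 2 decimals, so low values are coarse. Exact (Clopper-Pearson) 95% intervals came from the counts and were centred on the FPKM ratio. The intervals cover counting error only. Their computation was tested on counts simulated with counting error only, which did not cover the rounding of FPKM or the spread between mice. With 1 library per group no test was possible. TMM factors came from edgeR 4.0.16 in R 4.3.3, and all else from Python 3.11.15 (scipy 1.17.1 for intervals, pandas 2.3.3 and numpy 2.4.6 for tables, matplotlib 3.10.9 for figures). Exon overlap used GENCODE M21, and promoter windows came from RefSeq.

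Genes were named by rule: every lysosome gene past 2-fold, the 10 highest and 10 lowest ratios among genes that reached FPKM 1 in each library, the 10 most abundant, the most abundant of each role, and markers and regulators by list. Further genes were named after their values were seen to complete a role, such as Lamp1, Lgmn and M6pr, and 3 lysosome genes that enter all counts and medians are not reported here by name. The lysosome genes and the lists were chosen with earlier results of these data known. Alternatives were other filters, pseudocounts, thresholds and scalings, and leaving out genes that share exons, which was chosen after seeing the data.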

Additional observations from a re-analysis of the deposited data

How the results depend on the processing

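No paired analysis was possible because there was only 1 library a group and no test was made, and comparisons with the Control group were not run. The count of lysosome genes above 2-fold, 1 higher and 1 lower, became 0 and 0 when FPKM 1 was required of both libraries and when FPKM 5 was required of either. With a pseudocount of 1 the lower count became 0, and with a log2 threshold of 0.5 the counts were 3 higher and 6 lower. At equal FPKM sums the median log2 ratio became -0.0063 for proteases, -0.0073 for glycosidases, 0.17 for the proton pump and 0.073 for tagging and sorting. Over all 108 lysosome genes the median went from -0.080 to 0.0028 at equal FPKM sums and to -0.055 with TMM factors, and it stayed below that of all genes in each scaling (0.070 and 0.013). The share of FPKM held by lysosome genes was 1.20% for PBS and 1.16% for SJMHE1 without the 50 most abundant genes, and the share of counts was 1.04% and 0.988%. For the 35 lysosome genes named by rule, 214 of 245 alternative values stayed inside their counting interval, 31 left it, and 0 changed direction after passing the 2-fold threshold. Depth limits Ctsg and Ctsw most, with 16 counts for Ctsg in the PBS library and 82 for Ctsw in the SJMHE1 library.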
